A study of Mus musculus with 502 samples.

Results

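The genes described here are 40 genes that act in DNA replication and mitosis, taken by symbol from the count table of a single-cell RNA-seq study of mouse kidney. All 40 were found among the 46603 gene rows of the table, and the rule that names them sets no limit on a measured level, although the list was drawn up with earlier results of these data known. A gene is called read in a cell that holds at least 5 of its counts, and by this measure all 40 were read in at least 1 of the 502 cells. A cell is called member-rich when at least 10 of the 40 genes were read in it.

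The study asked how storing an intact organ in the cold bears on the transcriptomes of its resident immune cells. Kidneys of wild type CD1 mice, an outbred stock, about 3 weeks of age, were taken without perfusion and were dissociated at once (fresh) or after 6 h or 1, 2, 3 or 4 days in HTS-FRS, an organ transplant preservative, at 4 °C. Live Cd45+ cells were then sorted into wells and sequenced with a full-length protocol based on SmartSeq2, in which molecules are not tagged with identifiers. Cd45, encoded by Ptprc, is the surface marker of leukocytes, and Ptprc was read in 32 of the 35 member-rich cells and in 418 of the 467 other cells.

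The labels of the cells carry the tag IM793, IM834 or IM790. The labels do not say what this tag is, and it is taken here as a library pool. The timepoints were spread unevenly over the pools. Pool IM793 held 75 fresh cells, 76 cells of 6 h, 78 cells of day 2 and 2 cells of day 4. Pool IM834 held 81 fresh cells, 75 cells of day 1, 82 cells of day 3 and 19 cells of day 4, and pool IM790 held the other 14 cells of day 4. According to the methods the kidneys of 1 mouse were pooled for a timepoint, with both kidneys used up to day 2 and a smaller part of the tissue at days 3 and 4, and no label names an animal. The cells of a timepoint in a pool are therefore taken as 1 sample. Preserved cells are set beside fresh cells of their own pool, where each group is 1 sample, and no test between timepoints was made. Total counts on genes ran from 1759 to 1895431 per cell, with a median of 695188. Exact Clopper-Pearson intervals of shares and exact Poisson intervals of sums are given at the 95% level and cover counting error only. Of the 317 index pairs that mark wells, 55.8% were used in more than 1 pool and 0 were repeated within a pool.

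Some cells share a profile. Over 10767 genes the correlation of log2(rpm + 1), where rpm is the CPM of a cell, had a median of 0.218 over all pairs of cells, and 4 pairs stood above 0.55, at 0.86, 0.857, 0.74 and 0.58, with the next pair at 0.507. The pair at 0.857 lies in neighbouring wells of the fresh cells of pool IM793 and is the only one of the 4 that is member-rich. Its cells read the same 19 of the 40 genes, and the counts of the one were 0.278 to 0.545 times those of the other (median 0.465), as with 524 and 1078 counts of Ccna2 or 461 and 910 of Cdc20. These are therefore not independent cells, and the member-rich shares of all cells, of the fresh cells of that pool and of cells with no marker are also given with the less counted cell left out. The counts of cells for single genes below include both. The other 3 pairs held 1 to 4 of the 40 genes per cell. How the profiles came to match was not tested.

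The cell cycle is the ordered series of steps by which a cell copies its DNA and divides. Before replication the helicase subunits Mcm2 to Mcm7 are loaded on DNA, the enzymes Rrm1, Rrm2, Tyms and Tk1 supply nucleotides, and Pcna holds the polymerases on the template. Cyclins A and B (Ccna2, Ccnb1, Ccnb2) with the kinase Cdk1 then drive entry into mitosis, where Plk1, Aurkb and the checkpoint kinase Bub1 act on the spindle, and Cdc20 and Ube2c serve the ubiquitin ligase that ends it. Many of these genes are known to be transcribed in waves, replication genes under E2F factors and mitotic genes through a CHR element beside CCAAT boxes, so a cell in which many are read together is commonly taken to be in cycle, whereas most leukocytes in a tissue rest.

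Because the members share known promoter elements, 6 promoters are shown that lie outside or almost outside annotated exons. Each line gives the 200 bases before a RefSeq transcription start in build GRCm38.p6, from 5′ to 3′ on the gene's strand, and the capitals mark every match, on either strand, to an E2F word (TTTCCCGC, TTTGGCGC, TTTCGCGC or TTTGCCGC), a CHR word (TTTGAA or TTCGAA) or CCAAT. Mcm6 and Mcm7 encode helicase subunits, and their sequences are chr1:128359706-128359905 and, for 1 of the 2 starts listed for Mcm7, chr5:138171267-138171466, both on the minus strand. Cdk1 is the mitotic kinase (chr10:69352913-69353112, minus strand), Cdc20 the activator of the ligase (chr4:118437344-118437543, minus strand), Mki67 a protein that coats mitotic chromosomes (chr7:135716380-135716579, minus strand) and Top2a a topoisomerase that untangles DNA (chr11:99024190-99024389, minus strand).
Mcm6: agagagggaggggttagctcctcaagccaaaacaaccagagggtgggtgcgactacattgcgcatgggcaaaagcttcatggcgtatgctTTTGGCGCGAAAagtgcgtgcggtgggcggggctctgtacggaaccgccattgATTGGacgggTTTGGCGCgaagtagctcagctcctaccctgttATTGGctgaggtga
Mcm7: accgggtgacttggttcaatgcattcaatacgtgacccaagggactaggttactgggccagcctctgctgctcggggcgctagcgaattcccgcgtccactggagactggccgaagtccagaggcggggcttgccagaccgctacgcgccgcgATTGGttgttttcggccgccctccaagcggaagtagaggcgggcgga
Cdk1: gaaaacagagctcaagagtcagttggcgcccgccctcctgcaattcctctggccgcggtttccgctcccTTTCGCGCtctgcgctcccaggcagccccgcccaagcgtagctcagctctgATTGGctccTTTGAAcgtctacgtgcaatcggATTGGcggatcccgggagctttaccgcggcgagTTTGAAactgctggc
Cdc20: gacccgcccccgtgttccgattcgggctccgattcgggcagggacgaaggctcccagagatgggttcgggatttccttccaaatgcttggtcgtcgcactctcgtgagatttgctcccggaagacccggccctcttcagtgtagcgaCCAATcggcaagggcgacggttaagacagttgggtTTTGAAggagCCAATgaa
Mki67: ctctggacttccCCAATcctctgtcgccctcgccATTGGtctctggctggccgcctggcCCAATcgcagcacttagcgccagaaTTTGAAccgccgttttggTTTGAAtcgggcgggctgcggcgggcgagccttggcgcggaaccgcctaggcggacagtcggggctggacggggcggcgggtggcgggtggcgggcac
Top2a: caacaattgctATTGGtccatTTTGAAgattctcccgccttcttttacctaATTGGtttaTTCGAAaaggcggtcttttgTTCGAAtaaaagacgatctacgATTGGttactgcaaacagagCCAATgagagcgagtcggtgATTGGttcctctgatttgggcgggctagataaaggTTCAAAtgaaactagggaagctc

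The replication gene Mcm6 held 3 E2F matches, of which a pair overlap in 1 run, and 0 CHR matches, and this Mcm7 window held 0 of either and 1 CCAAT match. The window of the other Mcm7 start, which lies in exons and is not shown, held E2F and CHR words, and Mcm7 is counted with both below. Mki67 and Top2a held 0 E2F matches and 2 and 4 CHR matches. Cdk1 held 1 E2F and 2 CHR matches, and Cdc20 held 1 CHR match. Mcm6, Cdk1, Cdc20 and Top2a were picked after their motifs were seen, so differences between the windows shown are examples only. RefSeq promoter windows, from 250 bases before to 50 bases after a start, were at hand for 35 of the 40 genes, and Mcm4, Ccna2, Aurkb, Tpx2 and Stmn1 had no entry. An E2F word lay in 5 of 13 replication genes (38.5%), in 1 of 11 mitotic control genes (9.09%) and in 1 of 11 spindle and chromosome genes (9.09%), against 2.61% of all 27025 genes. A CHR word lay in 30.8%, 81.8% and 72.7% of the same groups, against 21.7% of all genes. CCAAT lay in 31 of the 35 members (88.6%) and in 41.1% of all genes, and CHR together with CCAAT in 60% and 8.61%. These matches are a description of letters in the windows and were not tied to any count below.

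Most cells held few of the 40 genes. None was read in 29.3% of the cells, 1 gene in 30.3%, 2 to 4 genes in 27.7%, 5 to 9 genes in 29 cells, 10 to 19 genes in 18 cells and 20 or more in 17 cells. The member-rich cells were therefore 35 of 502 (6.97%, interval 4.90 to 9.56%), or 34 of 501 (6.79%) without the less counted cell of the matching pair, and they held 59.2% of all counts of the 40 genes. Near the limit, 2 cells held 9 genes, 7 cells held 8 genes and 3 cells held 10 genes. The fullest cell, of day 4, held 39 of the 40 genes, and a pair of fresh cells held 37 each.

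**Figure D1:**
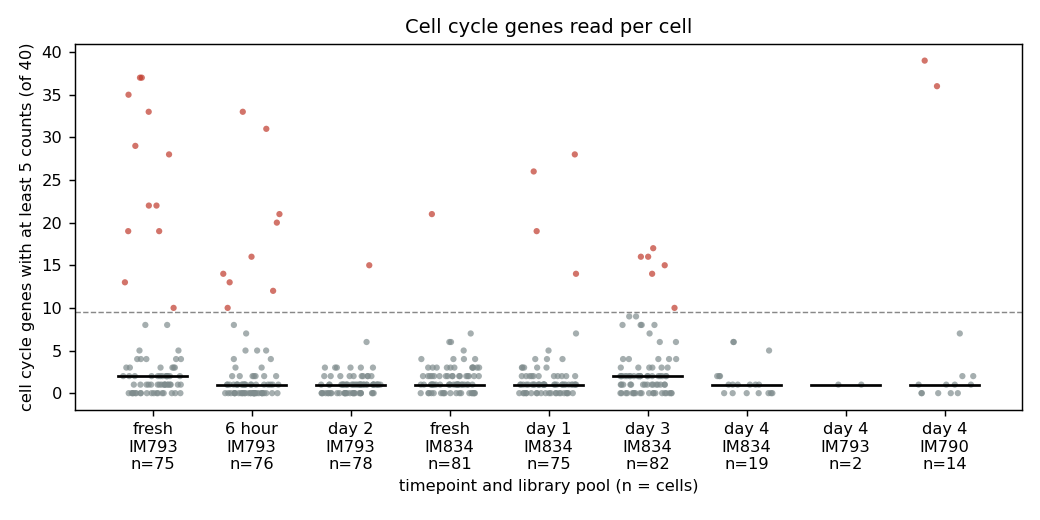
Number of the 40 cell cycle genes with at least 5 counts in each cell (vertical axis), by timepoint and library pool (horizontal axis, points spread sideways for legibility); red points are the member-rich cells above the dashed line, and black lines are medians over cells. In every sample the median lies at 1 or 2 genes, and the 35 member-rich cells stand above it at 10 to 39 genes.

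The member-rich cells were also cells with more genes detected. They had a median of 808462 counts on genes and the other cells 676903, while the medians of genes detected were 3785 and 1845. With each cell thinned at random to 100000 counts, and 8 shallower cells left out, the medians of genes detected were 3077 and 1534. After thinning a gene was counted as read at 1 or more counts, not 5. By this looser rule the median number of the 40 genes was 19 against 1, and 36 of 494 cells held at least 10. Of the 1617 nonzero values of the 40 genes, 10.02% were of 1 to 4 counts, so few values lay just below the limit of 5. Since the 40 genes define the member-rich cells, their higher CPM (counts scaled to 1000000 counts on genes) there is no finding. All 40 were at least 2-fold higher, against 16.6% of 15942 genes, and 0 were at least 2-fold lower, against 35.9%.

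Among the 14 replication genes Pcna, the Mcm genes and Rrm1 were widely read, and not in member-rich cells alone. Pcna (chr2:132249162-132253314) was read in 40.6% of all cells and in 37.04% of those that were not member-rich, and it was the member read in 68 of the cells with a single member (44.7%). The helicase subunits were each read in 50 to 89 cells, from Mcm5 in 50 and Mcm2 in 57 through Mcm3 in 61, Mcm4 in 68 and Mcm6 in 80 to Mcm7 in 89. As subunits of 1 ring they were read together in few cells: all 6 were read in 18 cells, 17 of them member-rich, and exactly 1 of the 6 in 22.9% of all cells, with 3 member-rich cells among them. Rrm1, the large subunit of ribonucleotide reductase, was read in 62 cells, 38 of them not member-rich. Its small subunit Rrm2 was read in 24 cells, 21 of them member-rich, and 17 of these 24 cells also held Rrm1.

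The other replication genes were narrower. Tyms (thymidylate synthase) was read in 40 cells and Tk1 (thymidine kinase) in 36, with 18 cells holding both. Asf1b, a histone chaperone, was read in 30 cells, 23 of them member-rich, and X2810417H13Rik, the gene of the Pcna-associated factor, in 29 cells, 23 of them member-rich and 27 of them with Pcna. Hist1h1b, a linker histone gene whose message is known to lack a poly(A) tail, was read in 12 cells, with a median of 107.5 counts, and all 12 were member-rich. The highest replication count was of Mcm6, 5862 counts in 1 member-rich cell of 6 h. The highest count of Tyms, 2025, fell in a day 3 cell with only 2 of the 40 genes read.

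The 13 mitotic control genes were read in 9 to 32 cells each. Ccna2 was read in 28 cells (23 member-rich), Cdk1 in 26 (20), Ccnb2 in 22 (16) and Ccnb1 in 19 (15). Both B cyclins were read in 12 cells, and Ccna2 with Cdk1 in 18. Cdca8 and Birc5, which with Aurkb belong to the chromosomal passenger complex, were read in 32 (21), 25 (21) and 19 (14) cells. Cdc20 was read in 23 cells (19), Ube2c in 20 (13), Cdca3, which acts in mitotic entry, in 19 (15), Bub1b in 11 (7) and Plk1 in 10 (8). The checkpoint kinase gene Bub1 was read in 9 cells, all of them member-rich.

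Of the 13 spindle and chromosome genes, Stmn1, which destabilises microtubules and is not particular to mitosis, was read in 80 cells, including 34 of the 35 member-rich cells. Mki67 (chr7:135689784-135716361), the gene of the Ki-67 antigen, was read in 51 cells, of which 28 were member-rich, and Top2a (chr11:98992943-99024189) in 37, of which 23 were member-rich. Both were read in 20 cells, and neither was read in 4 member-rich cells. The kinetochore genes Cenpe, Cenph and Cenpf were read in 32 (18), 21 (18) and 17 (11) cells. Among spindle genes Tpx2 and Prc1 were each read in 20 cells (15 and 14), Nusap1 in 19 (16), Kif11 in 12 (12), Hmmr in 15 (15) and Spag5 in 7 (5). The condensin subunit gene Ncapg was read in 19 cells, 18 of them member-rich. Kif11 and Hmmr were thus read in member-rich cells only, as were Bub1 and Hist1h1b. Spag5 rested on 1 day 3 cell, which held 3505 of its counts (79.2%) and only 4 of the 40 genes.

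Away from the member-rich cells, mitotic genes were scattered. Without Stmn1 there are 25 mitotic control and spindle genes, and at least 1 of them was read in 97 of the 467 other cells, but 5 of them were read in 2 cells and no cell exceeded 5. The authors counted reads without regard to strand, so exons shared with another gene make a value uncertain. Exon bases were shared with other annotated genes in 12 of the 40 members, and the share exceeded 10% in Ube2c (22.8%, with Tnnc2), Ncapg (13.4%, with Lcorl), Mcm7 (12.6%, with Ap4m1 and others), Ccna2 (12.5%, with Exosc9) and Prc1 (11.1%, with Rccd1).

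The member-rich cells differed in which steps of the cycle they covered. Their medians were 10 of 14 replication genes, 7 of 13 mitotic control genes and 6 of 13 spindle and chromosome genes. In 14 of the 35 cells no more than 2 mitotic control genes were read, and in 2 fresh cells none was, while these cells still held up to 12 replication genes. Pcna was read in 31 of the 35, a B cyclin in 19. At the other end lay cells with many mitotic and few replication genes: a 6 h cell with C1qb and Csf1r held 20 of the 26 mitotic control and spindle genes and 1 replication gene, and 4 of the 6 day 3 cells held 1 to 4 replication genes.

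**Figure D2:**
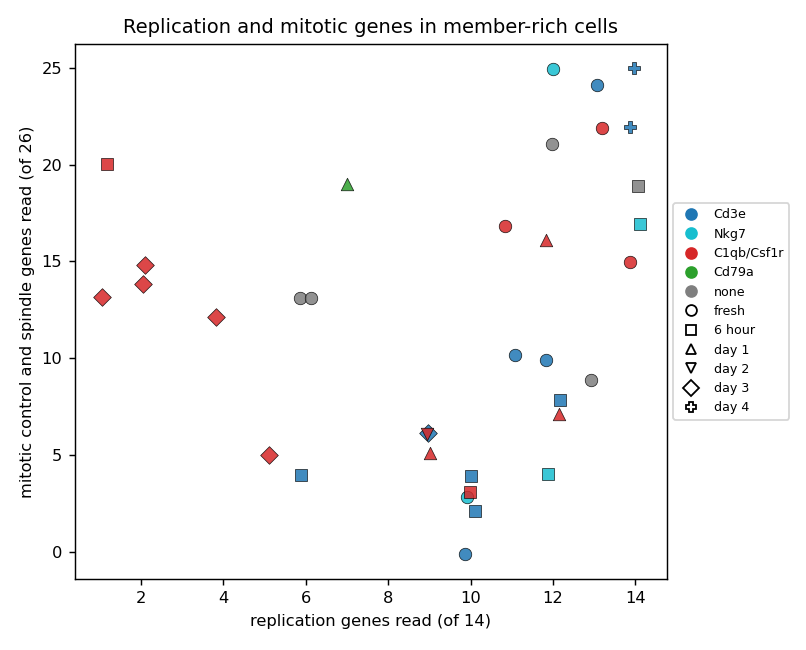
Replication genes read (horizontal axis, of 14) against mitotic control and spindle genes read (vertical axis, of 26) in each of the 35 member-rich cells; colour is the marker gene read (Nkg7 without Cd3e, C1qb or Csf1r without the lymphoid markers Cd3e and Nkg7), shape the timepoint, and points are spread by under 0.2 genes for legibility. The day 3 cells lie mostly to the left, with few replication genes, and 6 of the 9 cells of 6 h at the lower right, with at least 6 replication genes and at most 8 mitotic genes.

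The 5 marker genes place the member-rich cells in different leukocytes. Cd3e encodes a chain of the T cell receptor complex, Nkg7 a granule protein of natural killer and cytotoxic T cells, Cd79a a chain of the B cell receptor complex, C1qb a complement chain made by macrophages and Csf1r the receptor that macrophages and monocytes need to survive. Among cells in which Nkg7 was read, 13 of 43 were member-rich (30.2%, interval 17.2 to 46.1%), the highest share of the 5 over all pools. The other shares were 11 cells for Cd3e (10.3%, 5.24 to 17.7%), 12 of 130 for C1qb (9.23%, 4.86 to 15.6%), 13 cells for Csf1r (6.22%, 3.35 to 10.4%) and 2 of 77 for Cd79a (2.60%, 0.316 to 9.07%). This order did not hold within both pools. In pool IM793 the counts were 10 of 24 cells with Nkg7 (41.7%, 22.1 to 63.4%), 5 of 31 with C1qb (16.1%), 7 of 46 with Cd3e (15.2%) and 6 of 93 with Csf1r (6.45%). In pool IM834 they were 1 of 17 with Nkg7 (5.88%, 0.149 to 28.7%), 7 of 97 with C1qb (7.22%), 2 of 58 with Cd3e (3.45%) and 7 of 110 with Csf1r (6.36%), so that Nkg7 was not the highest there. The classes overlap in cells, and cells of 1 sample are not replicates, so these shares were not tested.

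The lymphoid member-rich cells were mostly cells with Nkg7. With Cd3e and Nkg7 both read, 9 of 29 cells were member-rich (31.03%, 15.3 to 50.8%), and with Nkg7 but no Cd3e 4 of 14 (28.6%, 8.39 to 58.1%). With Cd3e but no Nkg7 the count was 2 of 78 (2.56%, 0.312 to 8.96%). Among phagocytes, cells with both C1qb and Csf1r were member-rich in 11 of 120 (9.17%, 4.67 to 15.8%), and cells with Csf1r but no C1qb in 2 of 89 (2.25%, 0.273 to 7.88%). With none of the 5 markers read, 5 of 92 cells were member-rich (5.43%, 1.79 to 12.2%), of which 4 were fresh cells of pool IM793 and 1 was of 6 h. Since 2 of the 4 are the matching pair, the count is 4 of 91 (4.40%, 1.21 to 10.9%) with 1 of them left out. Of the 5 cells in which a lymphoid and a phagocyte marker were both read, 1 was member-rich. Doublets were not called.

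**Figure D3:**
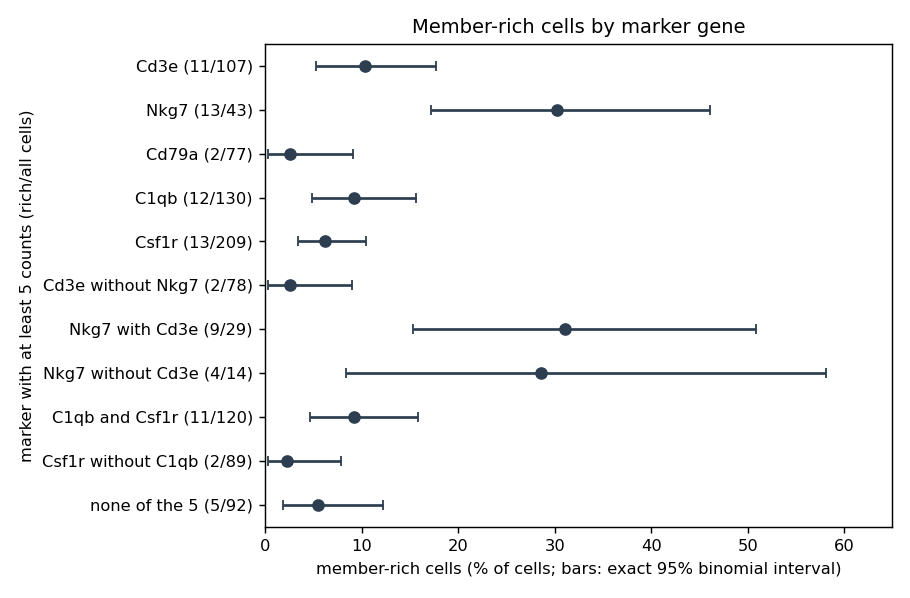
Share of member-rich cells (horizontal axis, percent of cells) among cells in which each marker gene or combination was read, with member-rich and all cells in parentheses; bars are exact 95% binomial intervals, which cover counting error only. Over all pools Nkg7, with or without Cd3e, stands at 28.6 to 31.03%, and Cd3e without Nkg7, Csf1r without C1qb and Cd79a at 2.25 to 2.60%.

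Single cells show the spread of levels within these classes. The fullest cell, of day 4 in pool IM790, held 446 counts of Cd3e, 1263 of Nkg7 and 958 of Cd4, with 2993 of Rrm2, 2268 of Ccnb1, 1989 of Top2a and 88 of Mki67. The other member-rich cell of that sample held 36 of the 40 genes with 836 counts of Cd3e, 2084 of Ccnb1 and 31 of Mki67. A fresh cell of pool IM793 with 37 genes held 2663 counts of Nkg7, 0 of Cd3e and 2404 of Ncr1, the gene of the natural killer receptor NKp46. Another fresh cell with 37 genes held 352 counts of Cd3e, 1249 of Nkg7 and the most Mki67 of any cell, 1929 counts, together with 2394 of Top2a. The fullest C1qb cell, also fresh in pool IM793, held 35 genes, 3588 counts of C1qb and 446 of Mki67, but 0 of Ccnb1. The 1 member-rich cell with Cd79a and no other of the 5 markers, of day 1, held 1184 counts of Cd79a and 26 genes, with 809 of Ccnb1 and 5 each of Rrm2 and Mcm6.

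**Figure D4:**
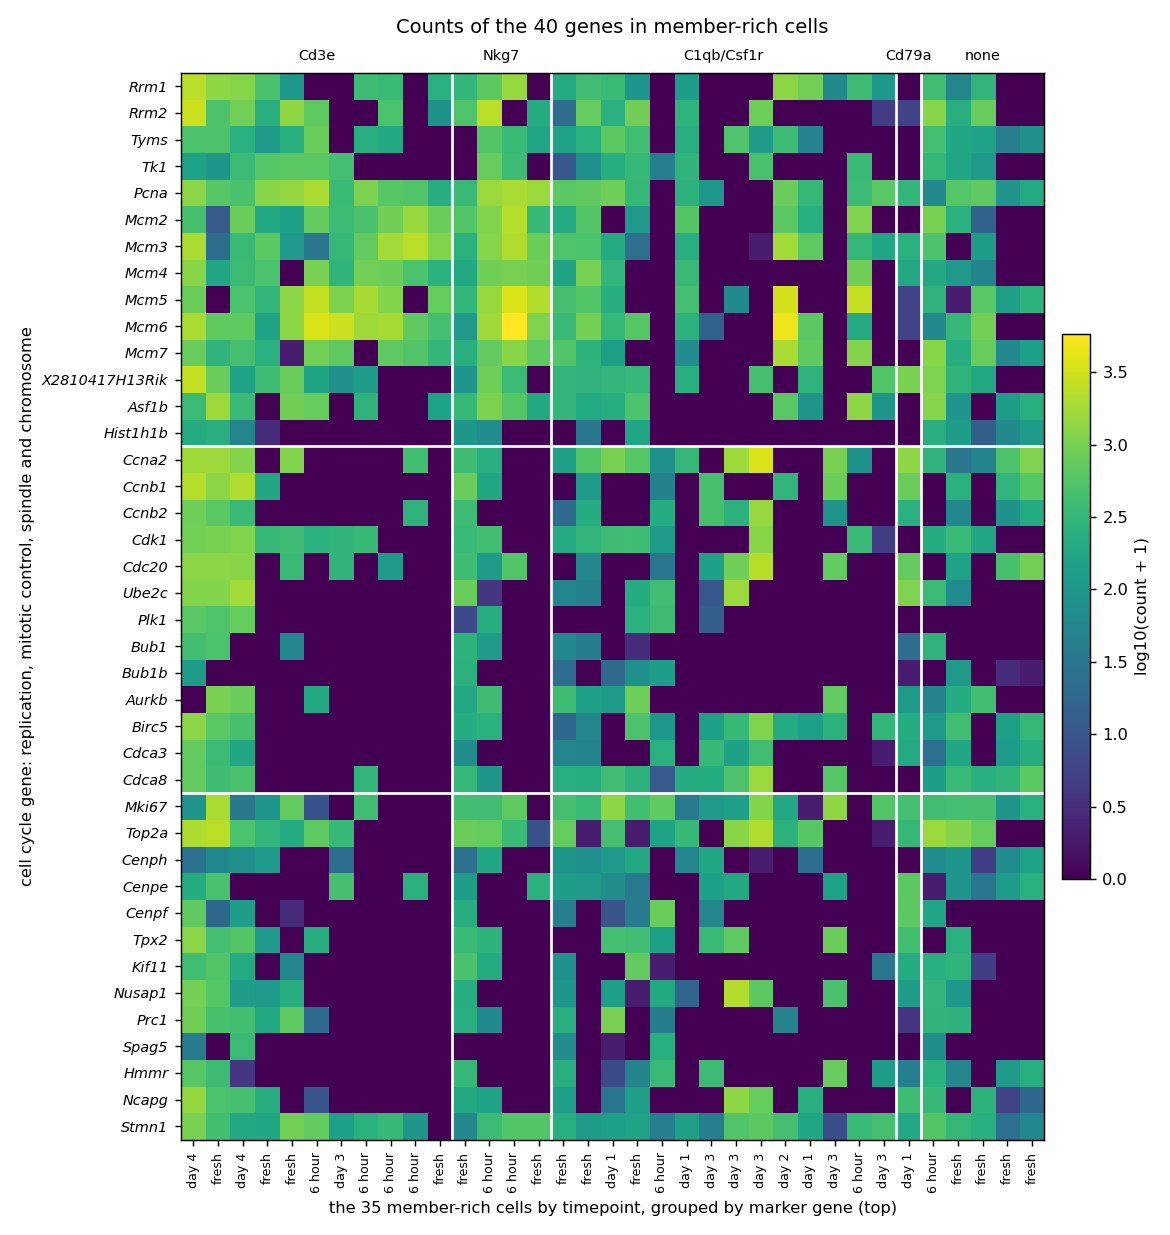
Counts, as log10(count + 1), of the 40 cell cycle genes (rows, in 3 blocks from replication at the top through mitotic control to spindle and chromosome) in the 35 member-rich cells (columns, labelled by timepoint), grouped by the marker gene read: Cd3e, Nkg7 without Cd3e, C1qb or Csf1r, Cd79a, and none of the 5. Replication genes fill most columns, the mitotic control block is dark or nearly so in 14 columns with at most 2 of its genes, and several day 3 columns show the reverse; the last 2 columns are the matching pair.

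Across timepoints, the share of member-rich cells differed as much between the 2 sets of fresh cells as between fresh and preserved cells. In pool IM793 it was 12 of 75 fresh cells (16%, 8.55 to 26.3%; 11 of 74, or 14.9%, with 1 cell of the matching pair left out), 9 of 76 at 6 h (11.8%, 5.56 to 21.3%) and 1 of 78 at day 2 (1.28%, 0.0325 to 6.94%). In pool IM834 it was 1 of 81 fresh cells (1.23%, 0.0313 to 6.69%), 4 of 75 at day 1 (5.33%, 1.47 to 13.1%) and 6 of 82 at day 3 (7.32%, 2.73 to 15.2%), while at day 4 it was 0 of 19 (exact interval up to 17.6%; a limit of 3 cells would be 15.8%). In pool IM790 it was 2 of 14 cells of day 4 (14.3%, 1.78 to 42.8%). Member-rich cells thus became fewer with time in pool IM793 and not in pool IM834, and over both pools they were 8.33% of fresh cells (13 cells, 4.51 to 13.8%) and 6.02% of preserved cells (20 of 332, 3.72 to 9.15%). Mouse, pool and time cannot be told apart.

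The make-up of the samples by marker gene differed as well. Cd3e was read in 12% of the fresh cells of pool IM793 and in 54.3% of those of pool IM834, Csf1r in 62.7% and 17.3%, and Cd79a in 0% and 20.99%. C1qb was read in 67.1% of day 3 cells, against 11.1% of fresh cells of pool IM834. From fresh through 6 h to day 2 in pool IM793, Csf1r was read in 62.7%, 31.6% and 26.9% of cells. In that order Cd79a was read in 0%, 11.8% and 38.5%, and Cd3e in 12%, 26.3% and 21.8%. C1qb was read in 10.7%, 7.89% and 20.5%, and Nkg7 in 8%, 18.4% and 5.13%. From fresh to day 1 in pool IM834, Cd3e went from 54.3% to 9.33%, Csf1r from 17.3% to 41.3% and C1qb from 11.1% to 29.3%. Cd79a went from 20.99% to 18.7% and Nkg7 from 11.1% to 5.33%. Within cells with Nkg7 the member-rich counts were 5 of 6 fresh, 5 of 14 at 6 h and 0 of 4 at day 2 in pool IM793, 0 of 9 fresh, 0 of 4 at day 1 and 1 of 4 at day 3 in pool IM834, and 2 of 2 at day 4 in pool IM790. Within cells with C1qb they were 2 of 8, 2 of 6 and 1 of 16 in pool IM793, and 0 of 9, 3 of 22 and 4 of 55 in pool IM834, in the same order of time, and at day 4 they were 0 of 11 in pool IM834, 0 of 1 in pool IM793 and 0 of 2 in pool IM790. The pools thus differed among fresh cells with Nkg7 as well, and the part of cell make-up in the shares was not tested.

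The 12 member-rich fresh cells of pool IM793, the matching pair included, lay on 6 of the 7 i5 indices used for that sample, with at most 4 on 1 index. All 12 held Ptprc, and their medians were 12 replication, 7.5 mitotic control and 7 spindle genes. The 9 cells of 6 h also held Ptprc and had medians of 10, 2 and 3, with no more than 2 mitotic control genes in 6 of the 9. The 6 cells of day 3 had medians of 3, 7 and 5.5. Their medians of genes detected were 4395, 3719 and 1451 in the same order, and Ptprc was read in 3 of the 6 day 3 cells. The low number of genes detected in the day 3 cells moved with the low number of replication genes, and its part was not tested.

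Summed over the cells of a sample, the level of a gene rested on few cells, and a lower sum with fewer such cells cannot be told apart from less RNA per cell. Sums of the 40 genes together were 2507 CPM in fresh cells, 2217 at 6 h and 893.0 at day 2 in pool IM793, while pool IM834 had 1037 in fresh cells, 1322 after 1 day, 2975 after 3 days and 2020 after 4 days. In pool IM790 the sum at day 4 was 4256 CPM. In pool IM793 member-rich cells supplied 84.5% of it in fresh cells, 72.7% at 6 h and 27.6% at day 2. In pool IM834 they supplied 27.8% in fresh cells, 56.4% after 1 day, 38.4% after 3 days and 0% after 4 days, and in pool IM790 92.8%.

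For single genes the shares of cells are given before the sums. Mki67 was read in 20 fresh cells (26.7%, 17.1 to 38.1%), 8 at 6 h (10.5%) and 1 at day 2 (1.28%) in pool IM793, and in 4 fresh cells (4.94%), 6 of day 1 (8%), 9 of day 3 (10.98%) and 1 of day 4 (5.26%) in pool IM834. Its CPM were 121.6 (118.5 to 124.6), 38.3 and 2.68 in pool IM793, and 32.3, 49.6, 101.3 (98.4 to 104.2) and 6.74 in pool IM834. Mki67 was thus highest in fresh cells of the first pool and at day 3 in the second, with the most cells in fresh pool IM793. Top2a was read in 7 fresh cells, 10 at 6 h and 5 at day 2, and in pool IM834 in 2 fresh cells, 7 of day 1, 4 of day 3 and 0 of day 4. Its CPM were 122.3, 75.1 and 24.7, and 7.67, 52.8, 79.8 and 0. In pool IM790 at day 4 both genes were read in 2 of 14 cells, at 7.80 CPM for Mki67 and 163.8 for Top2a.

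Rrm2, the subunit of ribonucleotide reductase that limits nucleotide supply in S phase, had 84.4 CPM fresh, 68.9 at 6 h and 13.6 at day 2 in pool IM793, and 38.3 fresh, 17.9 after 1 day, 18.4 after 3 days and 0 after 4 days in pool IM834. Of the day 2 value 99.9% came from 1 cell, and of the day 3 value 99.5%. Ccna2 had 99.5, 15.6 and 0 CPM, and 24.8, 66.8, 230.7 and 6.86, so that its order of levels in pool IM834 was not that of Rrm2. Ccnb1 had 70.2, 20 and 4.40 CPM, and 12.6, 20.6, 28.5 and 0, with 1 cell behind each value of day 2, fresh pool IM834 and day 1. At day 4 in pool IM790, Rrm2, Ccna2 and Ccnb1 had 257.3, 189.3 and 285.5 CPM, from 2 cells each. Mcm6 differed from these: its CPM were 134.3, 306.1 and 140.2 in pool IM793 and 122.6, 140.3, 331.98 and 0.72 in pool IM834, read in 14, 14 and 5 cells and in 13, 8, 21 and 1 cells. Pcna had 222.6, 222.7 and 99.99 CPM, and 150.2, 126.8, 203.6 and 404, in 38, 25 and 20 cells and in 34, 34, 40 and 5 cells.

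Against fresh cells of pool IM793, the 6 h cells had lower sums of mitotic but not of replication genes. On the log2 scale the median ratio of CPM over the 40 genes was −1.45, against 0.19 over all 13395 genes compared. At least 2-fold lower were 21 of 40 members, against 21.1% of all genes, and at least 2-fold higher were 3, against 27.5%. By role, 12 of 13 mitotic control genes (median −1.95), 8 of 13 spindle genes (−1.66) and 1 of 14 replication genes (0.25) were at least 2-fold lower. The lowest were Cenpe (−3.51), Aurkb (−2.95) and Kif11 (−2.77), and Mcm6 (1.19), Mcm4 (1.03) and Spag5 (1.70, from 1 fresh and 2 preserved cells) were higher. This rested on few cells, since without the fresh cell that held the most counts of the 40 genes the median was −0.48, with 18 lower and 3 higher, and without such a cell of each group it was −0.45. Leaving out that cell of the 6 h group gave a median of −1.42, with 1 gene higher in place of 3. The groups also differed in markers, with Csf1r read in 62.7% of fresh and 31.6% of 6 h cells. Cd3e was read in 12% and 26.3%, Nkg7 in 8% and 18.4% and Cd79a in 0% and 11.8%, and their part was not tested.

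At day 2 the median was −4.01, against 0.20 over 13406 genes. At least 2-fold lower were 34 of 40 members (26.7% of all genes), and 0 were higher (31.4%). Of these ratios 17 are bounds, set by a floor of 3 counts for a summed count under 3, so that for Ccna2, with 5030 fresh counts and 0 at day 2, the log2 ratio is −11.16 or lower. Mcm7 (0.63), Mcm6 (0.06) and Rrm1 (−0.06) were the highest, and 9 of 14 replication genes, 12 of 13 mitotic control genes and 13 of 13 spindle genes were lower. Leaving out the fullest cell of fresh or of day 2 cells gave medians of −3.50 and −6.42, with 31 and 36 genes lower. In the second case 21 of the 40 ratios are bounds, so −6.42 is set by the floor. Of the 5 markers Cd79a and Csf1r differed most, read in 38.5% and 26.9% of day 2 cells and in 0% and 62.7% of fresh cells. The medians of genes detected were 1731 at day 2 and 2649 in fresh cells, and the part of these differences was not tested.

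Against fresh cells of pool IM834, day 1 differed less in the replication genes than in the others. Of the 13 replication genes compared 3 were at least 2-fold higher and 2 lower (median −0.20), of 13 mitotic control genes 7 and 3 (1.43), and of 11 spindle genes 6 and 0 (1.95). Over all members the median was 0.70, against −0.04 over 12580 genes, with 16 of 37 members compared at least 2-fold higher (27.9% of all genes) and 5 lower (26.5%), and 6 of the ratios are bounds. Rrm1 was higher (2.09) and Mcm4 lower (−1.49). Tpx2 (6.25), Cenph (4.72) and Cenpf (4.20) were the highest without a floor, but their fresh sums were 14, 8 and 57 counts, each read in 1 cell. Plk1, with 687 fresh counts of 1 cell and 0 at day 1, was the lowest. The direction hung on 1 day 1 cell, the one with Cd79a described above: it held the most counts of the 40 genes, and without it the median was −0.15, with 10 higher and 8 lower. Without the fullest fresh cell it was 1.31, with 19 higher and 2 lower. Cd3e was read in 54.3% of fresh and 9.33% of day 1 cells and Csf1r in 17.3% and 41.3%, and their part was not tested.

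At day 3 the median was 1.79, against −0.09 over 12447 genes, and 30 of 39 members were at least 2-fold higher (27.4% of all genes) and 5 lower (29.2%). Higher were 11 of 13 mitotic control genes (median 3.08), 11 of 13 spindle genes (3.37) and 8 of the 13 replication genes compared (1.19). Tpx2 (7.02), Nusap1 (4.96), Cenph (4.79), Top2a (3.38) and Ccna2 (3.21) were among the highest with both sums above the floor, and Birc5, Cdca3, Ccnb2, Bub1b, Hmmr and Spag5 had 0 counts in the 81 fresh cells and enter as bounds, of which there were 8. Lower were Plk1 (−5.77), Prc1 (−4.66), Bub1 (0 counts against 54), Asf1b (−1.07) and Rrm2 (−1.06). Most of the day 3 counts of the 40 genes lay outside the member-rich cells. The fresh set held 1 such cell, without which the median was 2.71. C1qb and Csf1r were also more widely read at day 3 than in fresh cells of that pool (67.1% and 65.9% against 11.1% and 17.3%), and their part was not tested.

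At day 4 in pool IM834, with 19 cells, the median was −2.89 against −2.41 over 11192 genes, so the members lay close to all genes. Lower were 22 of 32 members compared (61.3% of all genes) and higher 8 (17.5%), with bounds in 16. The highest were Cdca3, with 756 counts of 1 day 4 cell and 0 in fresh cells, and Tpx2 (9.17), with 1480 counts of 1 cell against 14. Mcm2 (2.91, from 2 cells), Rrm1 (2.21, from 1 cell), Tyms (2.15, with 97.9% of its counts from 1 cell) and Stmn1 (2.09, from 4 cells) followed. Without the fullest cell of day 4 there were 5 higher and 23 lower members (median −3.45), and without the fullest fresh cell 10 and 17 (−1.77, a middle value that is itself a bound).

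These ratios of sums weigh cells by their counts. When log2(rpm + 1) was averaged over cells instead, the median differences of the 40 genes from fresh cells were smaller. For 6 h and day 2 they were −0.40 and −0.85, against −0.09 and −0.19 over all genes. For day 1 and day 3 they were 0.13 and 0.33, against 0.04 and −0.07. For day 4 the value was −0.02 against −0.30, so that the members lay above all genes there, whereas by sums they lay below.

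**Figure D5:**
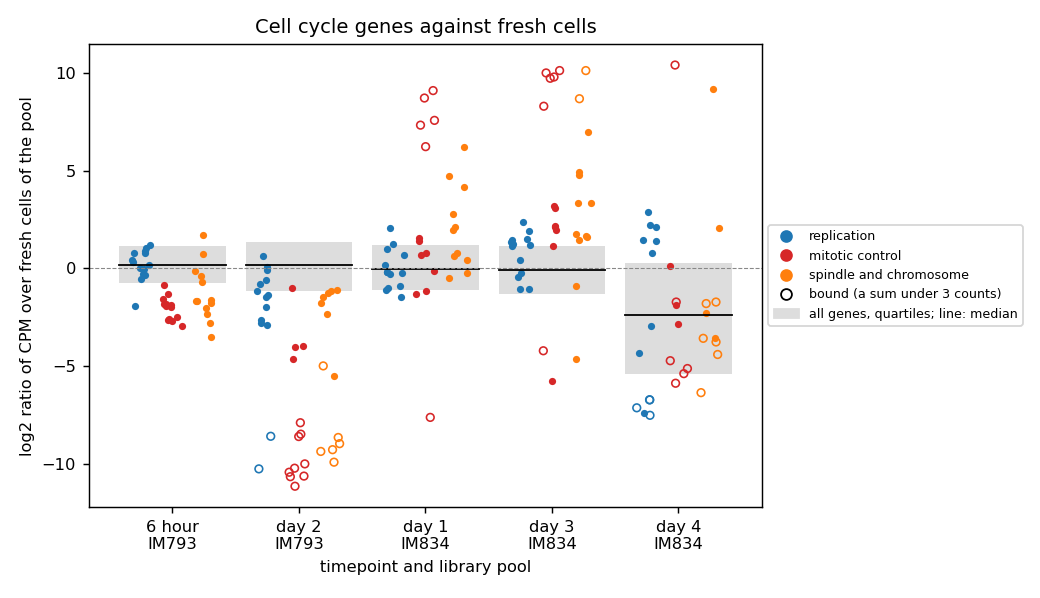
Log2 ratio of the summed CPM of each cell cycle gene at a preserved timepoint over fresh cells of the same library pool (vertical axis), by timepoint and pool (horizontal axis), coloured by role; open circles are bounds where a sum was under 3 counts, grey boxes span the quartiles of all genes compared and black lines their median. Of the 26 mitotic control and spindle genes, 21 lie below the box at 6 h and 24 at day 2 of pool IM793, and 22 lie above it and 3 below it at day 3 of pool IM834.

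Cell cycle genes outside the 40 were read more in member-rich cells as well. Of 29 activators and genes of the G1/S transition, 25 had at least 2-fold higher CPM in member-rich than in other cells and 0 lower, with a median log2 ratio of 2.96 against −0.31 over all genes, of which 16.6% were higher. The highest was Cdc45 (6.06), a subunit of the active helicase, read in 15 of 35 and 4 of 467 cells, and the lowest was Cdk6 (0.35), a kinase of the G1 phase. Of 30 further genes of mitosis, 28 were higher and 0 lower (median 3.53). Pbk, a mitotic kinase gene, was read in 9 of 35 member-rich cells and 0 of 467 others and is higher by at least 12.94 on this scale, and Bub3 (0.85) was the lowest. Among inhibitors and genes of quiescence, 2 of 12 compared were higher, 3 lower and 7 neither (median −0.09), where 16.6% of all genes were higher and 35.9% lower, so the counts of this list lay near or below those of all genes. Cdkn2c, an inhibitor of the G1 kinases, was the highest (2.91), and Btg1, an antiproliferative gene of resting lymphocytes, the lowest (−2.24), with 173.8 CPM in member-rich and 820 in other cells. The other two lower genes were Klf2 (−1.73) and Foxo1 (−1.41), factors of quiescent T cells. By share of cells these genes differed less or the other way, with Btg1 read in 65.7% of member-rich and 76.2% of other cells, Klf2 in 57.1% and 61.03%, and Foxo1 in 25.7% and 20.1%. The median share over the list was 27.1% in member-rich and 16.4% in other cells, against 11.4% and 4.71% over all genes. Cdkn2a and Cdkn2b had too few counts to be compared. Since the member-rich cells were picked on cell cycle genes, these ratios are a description.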

How the data were processed

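Single Cd45+ cells of mouse kidney were profiled by RNA-seq. The authors trimmed reads to 75 bp, removed duplicates, aligned to GRCm38 with STAR, counted with HTSeq (intersection-strict, strand ignored; GRCm38, STAR and HTSeq also stand in the submitters' processing notes) and left out cells under 1000 reads; their versions: not given in the sources used here. Deposited values are raw counts of reads per gene, 1 column per cell, and all 502 columns were used (0 left unused). Rows that name no gene (96 ERCC rows and a vector) held 0.140% of counts and were left out. CPM are counts on a gene scaled to a total of 1000000 on all genes.

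The members, role groups and other lists were chosen with earlier results of these data known. All 40 members are named, as are the highest and lowest gene of each further list and the 10 genes in no list with the largest difference in share of cells; Klf2 and Foxo1, and single cells and members given as examples, were named after their values were seen. Promoters to show were the 2 most widely read members of each role (Pcna and Mcm7, Cdca8 and Ccna2, Stmn1 and Mki67). Of these Ccna2 and Stmn1 had no RefSeq entry, and windows holding over 30 exon bases (Pcna, the other Mcm7 start, Cdca8) were left out. Mcm6, Cdk1, Cdc20 and Top2a were added after their motifs were seen. Gene coordinates and exons are those of GENCODE vM21 (GRCm38), matched by symbol.

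A comparison within a pool sets 1 sample beside 1, so no test was made. Counts were summed over cells, and log2 ratios of the CPM of these sums were taken for genes holding 50 or more counts in the 2 groups together, with a floor of 3 counts. Thinning drew 100000 counts per cell without replacement, and a gene was then counted as read at 1 or more counts. Doublets were not called. The steps were tested on simulated data. Python 3.11.15, numpy 2.4.6, pandas 2.3.3, scipy 1.17.1, matplotlib 3.10.9 and, for TMM factors alone, edgeR 4.0.16 in R 4.3.3 were used. Alternatives covered the count and member minimums, thinning, the member list, normalization, the minimum of summed counts, and leaving out single cells. Matching cells were looked for, after the data were seen, by correlating log2(rpm + 1) over genes read in at least 10 cells.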

Additional observations from a re-analysis of the deposited data

How the results depend on the processing

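No test was made, so a value was held to have moved when it left its counting interval or changed by more than 0.5 on the log2 scale. The sign of a median ratio over the members turned in 1 case, at day 1, and only when 1 cell was left out. Of 65 alternative shares by timepoint 60 did not move, of 30 by marker 28, and of 37 alternative median ratios 21. Without the less counted cell of the matching pair, a setting also chosen after seeing the data, the medians were −1.45 for 6 h and −3.92 for day 2. Without Pcna, Mcm2 to Mcm7 and Stmn1 the member-rich share was 5.26% at 6 h, 0% at day 2 and 4.78% of all cells. With a minimum of 5 members it was 18.3% at day 3, beside 6.17% of fresh cells of pool IM834 and 15.8% at day 4 there, and 12.7% of all cells, 24.6% of cells with C1qb and 17.7% of those with Csf1r. Leaving out the cell with the most counts of the 40 genes in each group gave median log2 ratios of −0.45 at 6 h and −5.92 at day 2, the second set by the floor of 3 counts, as are −6.42 and −1.77 below. Settings chosen after seeing the data left out that cell in 1 group alone. Without it in the fresh group the medians were −0.48 for 6 h, −3.50 for day 2, 1.31 for day 1, 2.71 for day 3 and −1.77 for day 4, and without it in the preserved group −6.42 for day 2, −0.15 for day 1 and −3.45 for day 4. Differences of mean log2(rpm + 1) over cells, in which cells with 0 counts weigh more, gave −0.40 for 6 h, −0.85 for day 2, 0.13 for day 1, 0.33 for day 3 and −0.02 for day 4, where the medians over all genes were −0.09, −0.19, 0.04, −0.07 and −0.30. A minimum of 200 counts gave −3.54 at day 4. TMM moved the median of all genes from 0.19 to 0.03 at 6 h, from 0.20 to −0.01 at day 2 and from −2.41 to −2.30 at day 4, with 22, 35 and 22 members lower. The cause of these moves was not tested. Day 4 rests on 35 cells over 3 pools, and its intervals are wide.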

Other observations

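Outside all lists, the 10 genes whose share of cells differed most between member-rich and other cells have different known roles. Ncaph2, a condensin II subunit, was read in 88.6% of the 35 member-rich cells and 19.9% of the 467 others, the histone gene H2afx in 77.1% and 11.99%, H2afv in 88.6% and 25.1%, and Hat1, a histone acetyltransferase, in 71.4% and 9.85%. The splicing genes Snrpd1, Lsm5 and Sf3b5 were read in 80%, 77.1% and 85.7% of member-rich cells and in 17.1%, 14.3% and 24.6% of others, and the tubulin gene Tubb4b in 85.7% and 23.1%. Siva1 (68.6% and 7.49%) and Ostc (88.6% and 27.6%) completed the 10. Log2 ratios of their CPM ran from 1.13 for Ostc to 3.10 for H2afx, a description, since the genes were picked for their excess in these cells. These cells also had more genes detected, and the part of this in the shares was not tested.

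Markers of further leukocytes were present in member-rich cells. Of the 5 such cells with none of the 5 marker genes, all held Flt3, Xcr1, Clec9a and Batf3, genes of conventional dendritic cells, at 100 to 342 counts of Flt3. These 4 were named after their values were seen; of the other 4 genes of the dendritic list Itgax was read in 2 of the 5 cells, Zbtb46 in 1, and Cd209a and Siglech in 0. The matching pair of fresh cells is counted here as 2 of the 5, and its counts of these genes ran in parallel, with 723 and 1523 counts of Xcr1 (a ratio of 0.475) and ratios of 0.412 for Flt3, 0.465 for Clec9a and 0.522 for Batf3. Over all cells Xcr1 was read in 8 of 35 member-rich and 13 of 467 other cells, and Flt3 in 5 and 17. Among cytotoxic genes, Gzmb was read in 7 of 35 and 3 of 467, and Ncr1 in 4 and 11. The neutrophil genes S100a8 and S100a9 were read in 2 member-rich cells, both fresh, at 7455 and 3424 counts of S100a8. The first is the less counted cell of the matching pair, which also held 9432 counts of S100a9, 3689 of Retnlg and 2365 of Csf3r, while its neighbour held 1 of S100a8 and 0 of the other 3. The dendritic and cell cycle counts of that cell can therefore not be told apart from those of its neighbour, and how they came to match was not tested. The epithelial gene Slc34a1 was read in 1 member-rich cell at 330 counts and Epcam in 1 at 13 counts, and Lrp2, Umod and Aqp1 in none. Cd4 was read in 5 member-rich cells, 2 of them the cells of day 4 in pool 790, where 1 held 708 counts of Foxp3, the factor of regulatory T cells, and the other 0.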
